A study of Mus musculus with 26 samples.

Results

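Propranolol, which blocks beta-adrenergic receptors, was set against no treatment in 2 kinds of material from the lungs of C57BL/6 mice injected through a vein with B16F10 melanoma cells, a mouse line that forms tumour nodules in the lung. The materials were CD4+ T cells pulled from lung with magnetic beads, and the whole lung with its metastases. The comparison asked which genes changed the same way with propranolol in the T cells and in the lung around them, and which changed in opposite ways. Of the 26 libraries of the series, 18 entered it: 4 propranolol and 4 control CD4 T cell libraries, and 5 propranolol and 5 control lung libraries, all from polyadenylated RNA. Control mice carried the same tumours and received no treatment. Dose, schedule and age are not given in the sources used here. No label ties the libraries of 1 group to different mice, so the p-values speak only to the spread among these libraries, which may be technical. For each gene the propranolol change in lung (log2, propranolol over control) was subtracted from the propranolol change in CD4 T cells, and this difference was tested in 1 edgeR quasi-likelihood fit of all 18 libraries over the 14926 genes measured in both materials, with Benjamini-Hochberg adjusted p below 0.05 as the call.

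Beta-adrenergic receptors answer noradrenaline and adrenaline through the stimulatory G protein, adenylyl cyclase and cyclic AMP, which frees the catalytic subunits of protein kinase A and lets the transcription factor CREB switch on genes with cAMP response elements. In T cells the cAMP pathway is known to restrain activation. Many CREB targets, such as the Nr4a nuclear receptors and Crem, are also immediate early genes that antigen receptor signals and cell stress switch on within minutes. In a lung with metastases, RNA from tumour cells, resident lung cells and infiltrating leukocytes is measured together.

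The CD4 T cell libraries held 27742422 to 42484125 counts on genes with propranolol and 17625672 to 35600275 in controls, and the lung libraries held 29650148 to 43447855 with propranolol and 33232082 to 47618634 in controls. Values below are CPM, counts scaled to the size of each library with TMM factors over the 18 libraries. The defining T cell gene Cd4 had 466 to 636 CPM in the propranolol CD4 T cell libraries and 585 to 595 CPM in the control ones. Tyrp1 and Dct, melanocyte pigment enzymes, and Sftpc, a surfactant protein of alveolar type 2 cells, were at 0 CPM in all 8 of these libraries. Other leukocytes were present: the summed level of 17 B cell genes was 12000 to 13700 CPM with propranolol and 9260 to 10600 CPM in controls, and that of 12 neutrophil genes was 1490 to 2050 CPM with propranolol and 255 to 356 CPM in controls. Erythroid RNA was present too, with 9 erythroid genes summing to 602 to 2190 CPM with propranolol and 535 to 566 CPM in controls. In lung, the melanocyte level, the mean log2(CPM + 1) of the 15 melanocyte genes, was 8.19, 7.25, 6.35, 5.51 and 8.37 in propranolol replicates 1 to 5, and 9.05 to 9.56 in the 5 controls. The lung groups did not overlap in melanocyte level, so propranolol and tumour RNA content cannot be fully told apart in lung. Replicates were also unequally close. Chi-square per degree of freedom between libraries was 4.7 to 6.73 in the 6 pairs of control CD4 T cell libraries and 5.13 between propranolol CD4 T cell replicates 3 and 4, against 32.8 to 120 in the other 5 propranolol pairs. Propranolol CD4 T cell replicates 1 and 2 were the lowest and highest of the 4 in 53.2% of 12274 genes, and replicates 3 and 4 in 4.97%, where an even spread over pairs would give 16.7%. Whether the close libraries share material was not tested, and counts are therefore also given with the 4 control libraries summed to 1 and propranolol replicates 3 and 4 summed to 1.

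As scaled here, more genes changed in opposite directions than in the same direction, 3860 against 2841, but with CD4 T cell libraries scaled on T cell genes 3751 moved apart and 3781 together. In CD4 T cells 9551 genes changed, 64.0% of those tested, with 4696 higher (31.5%) and 4855 lower (32.5%). In lung 10476 changed (70.2%), with 6107 higher (40.9%) and 4369 lower (29.3%). Both changes were called for 6701 genes (44.9%), of which 42.4% moved together and 57.6% moved apart. The genes that moved together were 1659 higher in both (11.1%) and 1182 lower in both (7.92%). The genes that moved apart, for which the difference itself also had to be called, were 1627 higher in CD4 T cells and lower in lung (10.9%) and 2233 lower in CD4 T cells and higher in lung (15.0%). Changes over 2-fold in both materials were found for 375 genes higher in both, 93 lower in both, 86 higher in CD4 T cells and lower in lung, and 798 lower in CD4 T cells and higher in lung. The difference was called for 10317 genes (69.1%), with 4700 more positive in CD4 T cells (31.5%) and 5617 more negative (37.6%). Moving together did not always mean moving by the same amount: the difference was called for 797 of the 1659 genes higher in both, 658 of them with the larger rise in CD4 T cells, and for 365 of the 1182 lower in both, 302 of them with the larger fall in CD4 T cells. Over all tested genes the 2 changes had Pearson's r of -0.125 and Spearman's rank correlation of -0.13, a description across genes, which share libraries and are not independent replicates.

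**Figure D1:**
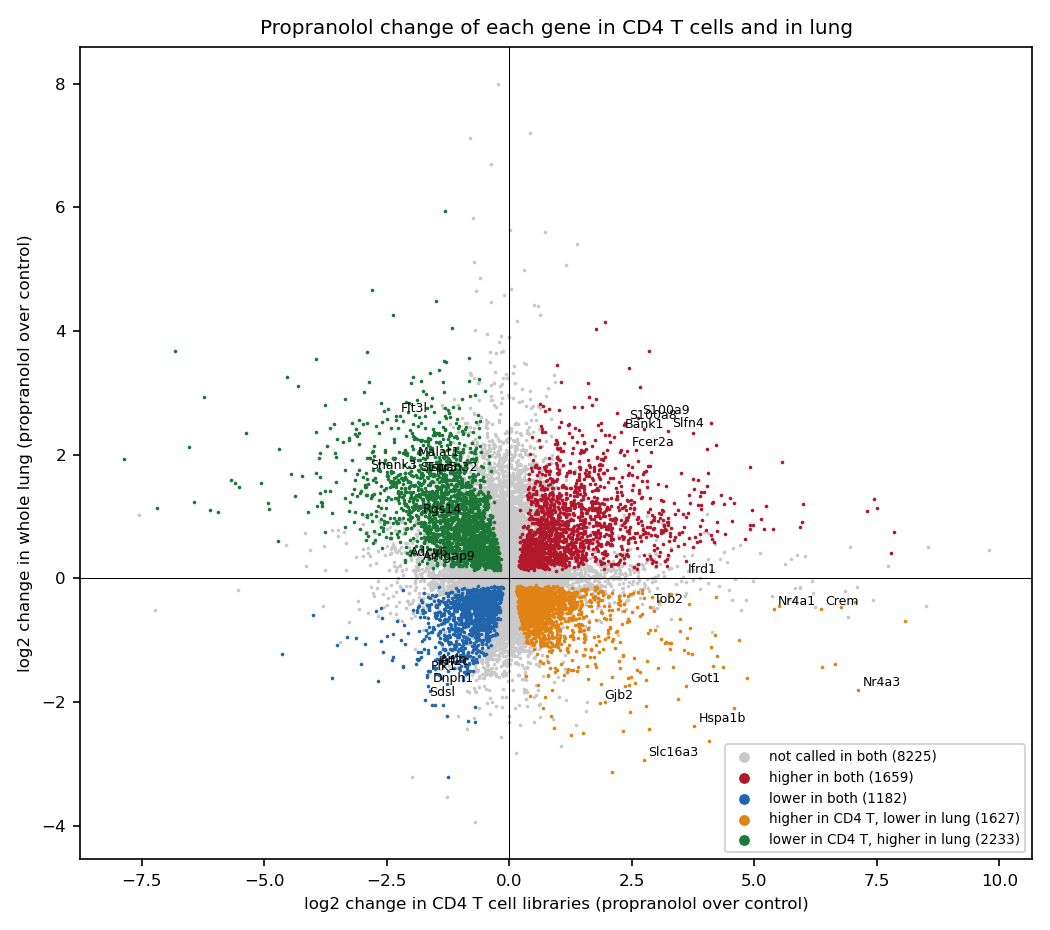
Each point is a gene, with its log2 change (propranolol over control) in CD4 T cell libraries on the x axis and in whole lung on the y axis; colours mark the 1659 genes higher in both, 1182 lower in both, 1627 higher in CD4 T cells and lower in lung, and 2233 lower in CD4 T cells and higher in lung, with the other tested genes in grey. Nr4a3 lies to the lower right, at 7.12 in CD4 T cells and -1.80 in lung.

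These counts moved with the treatment of close libraries, tumour RNA and scaling. With the close CD4 T cell libraries summed, 6001 genes changed in CD4 T cells, 1646 moved together and 2347 moved apart, and 53.1% of the original genes that moved together and 55.4% of those that moved apart kept their class. With the melanocyte level of each lung library as a covariate in lung, 1592 genes changed in lung, 430 moved together and 720 moved apart. Scaling the lung libraries on 55 markers of resident lung cells shifted the median lung change of all genes to -0.81, against 0.13 as reported, so that calls of the difference were 7933 more positive and 2245 more negative. Scaling CD4 T cell libraries on 18 T cell genes gave 2991 and 7337, and slightly more genes moving together (3781) than apart (3751), and scaling by library totals gave 2750 and 7797. A gene list is therefore read below against the median of all genes, which was -0.04 in CD4 T cells, 0.13 in lung and -0.12 for the difference, and over 6 scalings ranged from -0.54 to 0.79 for the difference. Some lists changed sign in 1 material: the CD4 T cell median of the oxidative phosphorylation, cytotoxic lymphocyte and MHC class I lists was -0.36, -0.06 and -0.23 with scaling on T cell genes, and the lung median of the adrenergic, circadian, glucocorticoid and p53 lists was -0.62, -0.36, -0.36 and -0.92 with lung scaled on resident cells. The summed libraries, the covariate in lung alone, and the scalings on T cell genes and on totals were chosen after seeing the data. With the melanocyte covariate the lung changes of Nr4a1, Nr4a2, Atf3, Gadd45b, Irf4, Myc, Insig1, Bhlhe40, Nfil3, Malat1, Kcnq1ot1, Bcl11b, Tcf7, Adcy7, Adrb1, Tap2, B2m, Pcna, Cdt1, Rpl19, Gp5, Sdsl and Dnph1, described below as they came out without it, were not called. With the close libraries summed the CD4 T cell changes of Bcl11b, Cd160, Cd22, Siglecg, Pcna, Cdt1, Sdsl and Dnph1 were not called. With scaling on T cell genes those of Ciita, Dnaja1, Rpl19, Pcna and Cdt1 were not, and with lung scaled on resident cells the lung changes of Irf4, Gadd45b, Cd160, Dbp, Tap2 and Adrb1 were not. A bulk level cannot tell fewer cells of a type from less RNA per cell.

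Among the genes higher in both materials were markers of leukocytes other than CD4 T cells, and genes of antigen presentation. Of 17 B cell genes, 15 rose in CD4 T cell libraries and 17 in lung, and the same 15 rose in both, with a median log2 change of 1.80 in CD4 T cells and 2.07 in lung. Over all genes tested, 31.5% rose in CD4 T cells, 40.9% in lung and 11.1% in both. All 10 measured genes of MHC class II presentation rose in both, with medians of 1.64 and 1.5. Of 12 neutrophil genes, 12 rose in CD4 T cell libraries and 8 in lung, the same 8 in both, with medians of 2.41 and 1.76. The 3 lists rose in both materials under all 6 scalings. The difference of their medians was small and its sign depended on the scaling: it ranged from -0.56 to 0.74 for B cells, -0.03 to 1.32 for MHC class II and -0.52 to 0.79 for neutrophils, and relative to all genes from -0.05 to -0.02, 0.50 to 0.53 and 0.00 to 0.02 in that order. With the melanocyte covariate in lung, 17 B cell, 9 MHC class II and 8 neutrophil genes rose in lung, and with the close libraries summed 13, 8 and 11 rose in CD4 T cells.

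Bank1 encodes a B cell scaffold protein of antigen receptor signalling. It had 48.4, 58.6, 54.7 and 50.3 CPM in propranolol CD4 T cell libraries, against 12.5, 11.6, 9.22 and 10.4 CPM in control ones. In lung it had 13.5, 14.8, 14.7, 15.1 and 9.79 CPM with propranolol, against 2.09, 2.18, 3.81, 2.43 and 3.01 CPM in controls. The groups did not overlap in either material. Its log2 change was 2.28 in CD4 T cells (edgeR adjusted p = 2.91e-09) and 2.37 in lung (edgeR adjusted p = 2.85e-08), and the difference of -0.09 ± 0.23 (SE) was not called (edgeR adjusted p = 0.746), although it was 0.80 and called with lung scaled on resident cells (adjusted p = 0.0014). Fcer2a, the low-affinity IgE receptor CD23 of B cells, rose by 2.41 in CD4 T cells and 2.07 in lung, with a difference of 0.34 ± 0.30 (edgeR adjusted p = 0.317). The difference of Fcer2a was called with lung scaled on resident cells (1.28, adjusted p = 0.00073) and with the melanocyte covariate in lung (1.04, adjusted p = 0.0109). Siglecg and Cd22, which restrain B cell receptor signals, rose by 0.68 and 0.61 in CD4 T cells and by 2.78 and 2.24 in lung. Their CD4 T cell calls did not hold with those libraries scaled on T cell genes, where they were 0.21 and 0.14.

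S100a9 encodes a subunit of calprotectin, the abundant calcium-binding complex of neutrophils and monocytes. It had 271, 458, 355 and 371 CPM in propranolol CD4 T cell libraries, against 48.6, 63.8, 57 and 65.3 CPM in control ones. Its lung values were 31.2, 47.1, 31.2, 28 and 24.3 CPM with propranolol, against 4.49, 5.74, 5.22, 5.54 and 6.54 CPM in controls. Every propranolol library was above every control of its material, by 2.63 in CD4 T cells and 2.6 in lung on the log2 scale, with a difference of 0.03 ± 0.25 that was not called (edgeR adjusted p = 0.908). S100a8, its partner, rose by 2.36 and 2.50 (difference -0.14 ± 0.28, edgeR adjusted p = 0.661). With lung scaled on resident cells both differences were called, at 0.95 for S100a9 (adjusted p = 0.00467) and 0.77 for S100a8 (adjusted p = 0.0475). Slfn4, a Schlafen gene of myeloid cells, rose by 3.24 in CD4 T cells and 2.38 in lung, and this difference of 0.86 ± 0.28 was called (edgeR adjusted p = 0.0101), though not with the melanocyte covariate in lung (0.68, adjusted p = 0.131), with close libraries summed (0.89, adjusted p = 0.0849), with scaling on T cell genes (0.51, adjusted p = 0.105) or by library totals (0.44, adjusted p = 0.163). Not all neutrophil genes moved together. Ltf, lactoferrin of neutrophil granules, had 239 to 330 CPM with propranolol and 41.3 to 61.3 CPM in controls among CD4 T cell libraries. Among lungs it had 4.44 to 9.89 CPM with propranolol and 8.52 to 58.3 CPM in controls, an overlap of the groups, and its difference was 4.04 ± 0.58 (edgeR adjusted p = 8.24e-06).

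H2-Aa, the alpha chain of the MHC class II molecule I-A, had 464, 754, 579 and 573 CPM in propranolol CD4 T cell libraries, against 89.2, 92.9, 93.1 and 100 CPM in control ones. Whole lung held 357, 389, 469, 491 and 289 CPM of it with propranolol, against 123, 151, 201, 157 and 159 CPM in controls. Both materials rose with no overlap, and the CD4 T cell rise was the larger: 2.65 against 1.38 in lung (difference 1.27 ± 0.23, edgeR adjusted p = 8.31e-05). H2-Ab1, its beta chain, did the same, at 2.51 and 1.42. Ciita, the master regulator of class II genes, went the other way round, with 0.77 in CD4 T cells and 1.73 in lung (difference -0.97 ± 0.20, edgeR adjusted p = 0.000398; -0.38, adjusted p = 0.104, with the melanocyte covariate in lung; -0.04, adjusted p = 0.839, with lung scaled on resident cells). These genes are carried by B cells and myeloid cells, and the part of such cells in the rise was not tested. The B cell marker sum in the CD4 T cell libraries was also higher with propranolol, at 12000 to 13700 against 9260 to 10600 CPM. The sum of the monocyte and macrophage list was 5250 to 5930 against 1060 to 1220 CPM. That list includes Nr4a1, described below among cAMP-responsive genes, which alone had 3400 to 4230 against 83.5 to 89.6 CPM. Most of the rise of that sum was Nr4a1, so the sum is no measure of myeloid RNA content.

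Most listed checkpoint genes, and 10 of 18 T cell activation genes, also rose in both materials. Among all genes tested, 31.5% rose in CD4 T cells, 40.9% in lung and 11.1% in both. Of 10 checkpoint genes 8 rose in CD4 T cells and 10 in lung, 8 of them in both, with medians of 1.79 and 1.09, both positive under all 6 scalings. Cd274, the PD-L1 ligand, rose by 2.46 in CD4 T cells and 0.65 in lung, and Havcr2, an inhibitory receptor of exhausted T cells, by 3.03 and 0.93. The CD4 T cell libraries also held RNA of other leukocytes, whose part in these rises was not tested. The lung change of Cd274 was -0.29 with lung scaled on resident cells, and that of Havcr2 was then 0.02; neither lung rise was called with the melanocyte covariate, at 0.31 (adjusted p = 0.136) and 0.53 (adjusted p = 0.198). Cd160, a receptor of cytotoxic lymphocytes, moved apart, at -0.63 in CD4 T cells and 1.26 in lung. Of 18 activation and costimulation genes 17 rose in CD4 T cells, 10 rose and 5 fell in lung, 10 rose in both and 4 moved apart, with medians of 2.35 and 0.77. Their changes differed in size: the difference was positive and called for 14 of the 18 (median 2.03), against 31.5% of all genes tested. The lung median of this list was -0.17 with lung scaled on resident cells. Under the melanocyte covariate 4 of the checkpoint genes rose in lung, and 7 of the activation genes rose and none fell there. Irf4, a transcription factor that T cells raise with antigen receptor signal strength, rose by 3.46 in CD4 T cells and 0.71 in lung (difference 2.75 ± 0.15, edgeR adjusted p = 5.54e-11). Myc, a driver of growth and also an oncogene of tumour cells, rose by 1.66 in CD4 T cells and fell by 1.15 in lung (difference 2.81 ± 0.25, edgeR adjusted p = 3.02e-08). Tnfrsf9, a costimulatory receptor, and Slc7a5, an amino acid transporter subunit, also rose in CD4 T cells, by 2.57 and 2.23, and fell in lung, by 1.69 and 1.34.

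The genes lower in both materials included genes of cell division. Of 30 genes of DNA replication and division, 10 fell and 2 rose in CD4 T cells, 30 fell in lung, and 10 fell in both, with medians of -0.54 and -1.33, both negative under all 6 scalings. Over all genes tested, 32.5% fell in CD4 T cells, 29.3% in lung and 7.92% in both. The share of the list that fell in CD4 T cells was thus near that of all genes. Because all 30 fell in lung, the 10 lower in both are simply the 10 that fell in CD4 T cells. The 10 were Mki67, Mcm7, Ccnb1, Cdc20, Bub1, Bub1b, Plk1, Aurkb, Kif20a and Cenpe, of which all but Mcm7 and Mki67 encode parts of the machinery of mitosis. Plk1, a mitotic kinase, had 8.47, 17.3, 13.5 and 13.3 CPM in propranolol CD4 T cell libraries, against 43.3, 39.1, 42.6 and 42.2 CPM in control ones. Propranolol lungs had 27.3, 13.1, 8.06, 5.96 and 30.9 CPM of it, against 53.9, 50.5, 40.8, 54 and 56.6 CPM in control lungs. The groups did not overlap in either material, and lung propranolol replicates 1 and 5, which had the highest melanocyte levels of their group, also had the highest Plk1. Its log2 change was -1.68 in CD4 T cells and -1.56 in lung, and the difference of -0.12 ± 0.49 was not called (edgeR adjusted p = 0.83). Klf1, an erythroid transcription factor, also fell in CD4 T cell libraries, from 78.7 to 85.6 CPM in controls to 18.2 to 54.5 CPM with propranolol. Propranolol replicates 1 and 2 were the extremes of both Plk1 and Klf1, as of 53.2% of genes. Of 9 erythroid genes 7 rose and 2 fell in CD4 T cells, and the part of such cells in the division genes was not tested. Kif2c, a kinesin that corrects chromosome attachments, fell by 1.52 and 1.46, and Anln, which builds the cleavage furrow, fell by 1.5 and 1.44. Given the melanocyte covariate none of the 30 division genes was called in lung, and with the close CD4 T cell libraries summed 1 of them fell and none rose in CD4 T cells. Under the melanocyte covariate in lung the lung changes were 0.04 for Plk1, 0.01 for Kif2c and -0.17 for Anln, none of them called, and the differences of these genes became called, at -1.72, -1.53 and -1.33. With the close CD4 T cell libraries summed, the CD4 T cell falls of Plk1 and Kif2c had adjusted p of 0.0507 and 0.0691. Sdsl, a serine dehydratase-like enzyme, and Dnph1, a nucleotide hydrolase, were the other genes with the strongest fall in both, at -1.71 and -1.97 for Sdsl and -1.65 and -1.74 for Dnph1. Within the division list, Pcna, the sliding clamp of DNA replication, and Cdt1, which loads the replicative helicase, moved apart. Pcna had 339 to 441 CPM with propranolol and 207 to 224 CPM in controls among CD4 T cell libraries, and 58.3 to 120 CPM with propranolol and 146 to 188 CPM in controls among lungs (difference 1.77 ± 0.22, edgeR adjusted p = 1.58e-06). The division list's median difference was 0.73 as reported, 0.29 to 1.53 over the scalings, and -0.52 with the melanocyte covariate in lung.

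**Figure D2:**
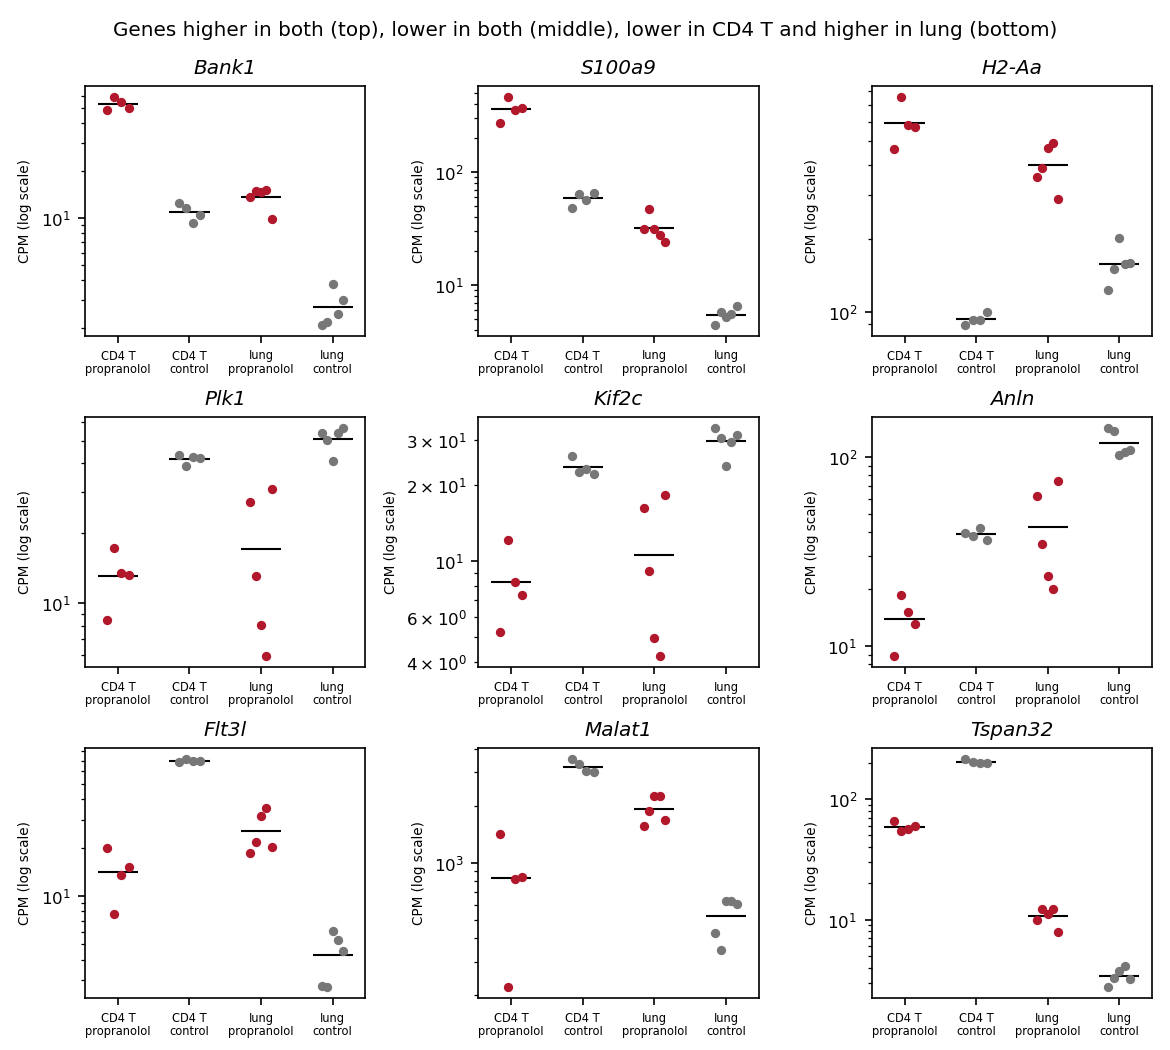
CPM on a log scale in every library (points, with group means as lines) for 3 genes higher in both materials (Bank1, S100a9, H2-Aa), 3 lower in both (Plk1, Kif2c, Anln) and 3 lower in CD4 T cells and higher in lung (Flt3l, Malat1, Tspan32). Propranolol and control points do not overlap in either material for these genes; the lung propranolol libraries spread most for Plk1, from 5.96 to 30.9 CPM.

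Listed cAMP-responsive and immediate early genes rose in CD4 T cells, and nearly all had a more positive change there than in lung. Of 18 genes listed as cAMP and CREB responsive, 17 rose and none fell in CD4 T cells (median 3.24), 6 rose and 7 fell in lung (median -0.10), and the difference was positive and called for all 18 (median 2.96), against 31.5% of all genes tested. Of 21 immediate early genes, 21 rose in CD4 T cells (median 2.72), 10 rose and 3 fell in lung (median 0.20, and -0.76 with lung scaled on resident cells), and the difference was positive and called for 20 (median 2.30). For all genes tested the shares were 31.5% higher and 32.5% lower in CD4 T cells, and 40.9% higher and 29.3% lower in lung. The lung counts of the cAMP list, and the lung rises of the immediate early list, were near these lung shares. The 2 lists share Nr4a1, Fosl2 and Dusp1. Over the 6 scalings the median difference was 2.55 to 3.89 for the cAMP list and 1.87 to 3.25 for the immediate early list, and relative to all genes 3.08 to 3.10 and 2.41 to 2.46. The lung calls were fewer with the melanocyte covariate, at 1 higher and 2 lower for the cAMP list and 1 higher for the immediate early list. With that covariate the median differences were 3.30 and 2.32, and with the close libraries summed 3.04 and 2.40, with 17 and 20 members called.

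Nr4a3 encodes an orphan nuclear receptor that T cells induce after antigen receptor and cAMP signals. It had 5460, 4010, 4600 and 4600 CPM in propranolol CD4 T cell libraries, against 31.5, 34.2, 35.8 and 32.6 CPM in control ones. In lung it had 45.5, 25.2, 21.9, 16 and 54.8 CPM with propranolol, against 117, 82.2, 118, 149 and 116 CPM in controls. All CD4 T cell libraries with propranolol were far above the controls, and all lung libraries with propranolol were below them. Its log2 change was 7.12 in CD4 T cells and -1.80 in lung, with a difference of 8.92 ± 0.42 (edgeR adjusted p = 6.4e-12). With the melanocyte covariate in lung its lung change was -0.65 and not called (adjusted p = 0.0568).

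Crem encodes cAMP-responsive activators and the repressor ICER. It had 1090, 1240, 1220 and 1200 CPM in propranolol CD4 T cell libraries, against 14.4, 15.7, 12.3 and 14.9 CPM in control ones. Its lung values were 12.6, 12.1, 16.2, 15.7 and 13.5 CPM with propranolol, against 20.3, 17.9, 21.6, 20.8 and 21.6 CPM in controls. Neither material had an overlap, and the difference of 6.87 ± 0.15 had the smallest p of all positive ones (edgeR adjusted p = 5.58e-16). Nr4a1 had 3400 to 4230 CPM with propranolol and 83.5 to 89.6 CPM in controls among CD4 T cell libraries, and 79.3 to 114 CPM with propranolol and 117 to 158 CPM in controls among lungs (difference 5.90 ± 0.16, edgeR adjusted p = 6.46e-15). Nr4a2 rose by 7.05 in CD4 T cells and fell by 0.38 in lung. Fosl2, an AP-1 subunit, rose by 5.93 in CD4 T cells, and its lung change of -0.15 was not called (edgeR adjusted p = 0.32). Tob2, which restrains proliferation, and Ifrd1, a transcriptional co-regulator, had differences of 3.33 ± 0.09 and 3.53 ± 0.10, and the lung change of Ifrd1, 0.02, was not called (edgeR adjusted p = 0.832). Atf3, a stress-induced repressor, rose by 6.78 in CD4 T cells and fell by 0.46 in lung. Part of the list rose in lung as well: Dusp1, a phosphatase that switches off MAP kinases, had 416 to 521 CPM with propranolol and 60.1 to 71.2 CPM in controls among CD4 T cell libraries, and 103 to 168 CPM with propranolol and 73 to 98.5 CPM in controls among lungs. Its changes were 2.82 and 0.83, with the lung one at -0.12 when lung was scaled on resident cells and at 0.42 (adjusted p = 0.126) with the melanocyte covariate. Gadd45b, a stress sensor, rose by 4.92 and 0.87, and Areg, an epidermal growth factor ligand, by 6.19 in CD4 T cells with -0.05 in lung, a lung change that was not called.

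**Figure D3:**
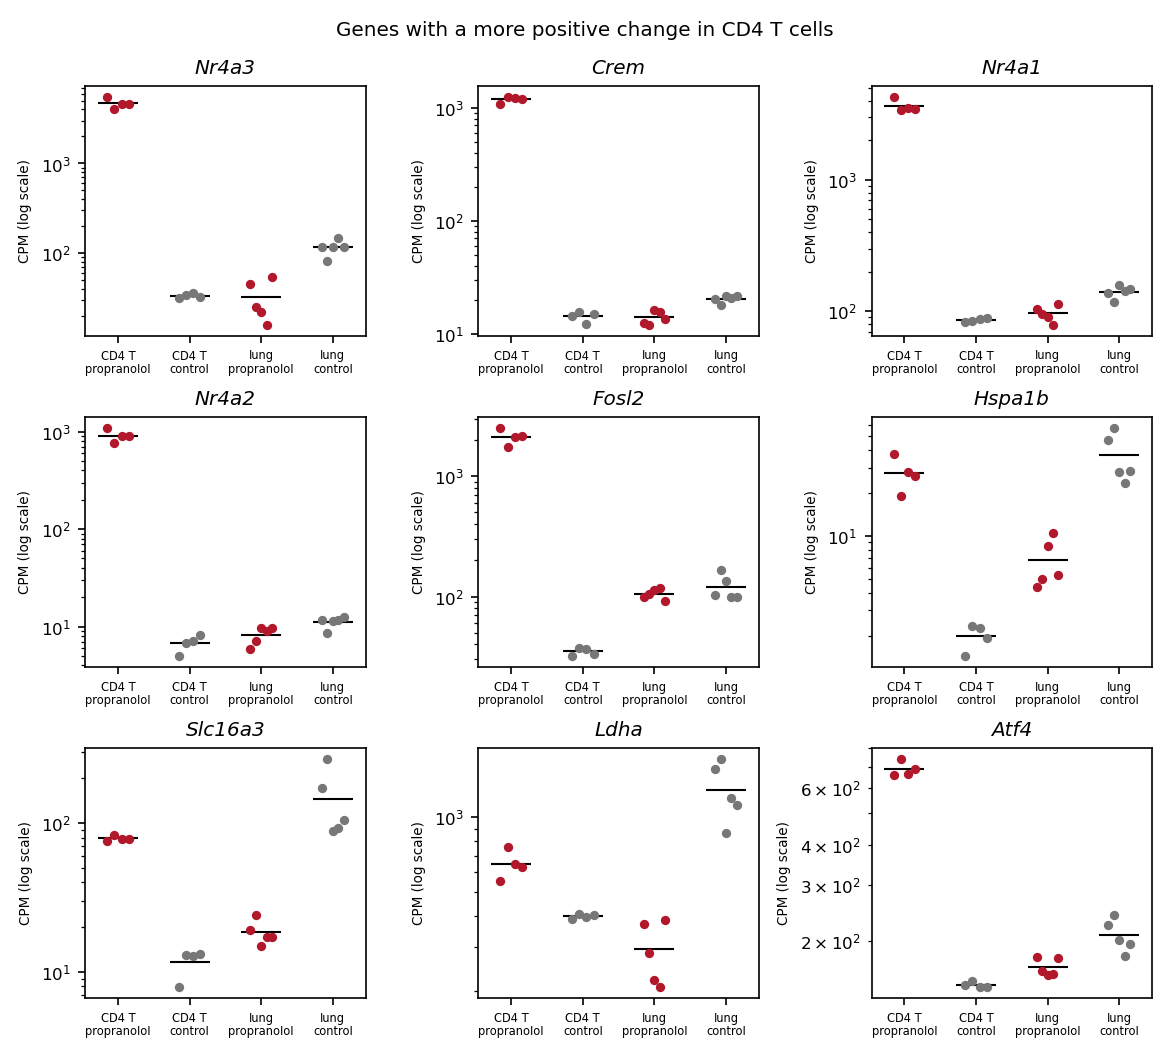
CPM on a log scale in every library (points, with group means as lines) for 9 genes with a more positive change in CD4 T cells than in lung. In the CD4 T cell libraries Nr4a3 stands at 4010 to 5460 CPM with propranolol and 31.5 to 35.8 CPM in controls, while in lung it stands at 16 to 54.8 CPM with propranolol and 82.2 to 149 CPM in controls.

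Promoter sequence is shown for 3 genes that hold the full cAMP response element and differ in how they moved: Prkar1a and Ldha moved apart, and Dusp1 rose in both. Windows run from 250 bases before to 50 after the RefSeq transcription start on GRCm38.p6, 5' to 3' on the gene's strand, and capitals mark TGACGTCA. Prkar1a is at chr11:109650612-109650911 on the plus strand, 1 of 6 windows of that gene. Its match lies after the transcription start of this window. The same site also falls in an overlapping window, chr11:109650699-109650998, where it lies before the start. Ldha is at chr7:46845554-46845853 on the plus strand, 1 of 2 windows, and the other does not hold the element. Dusp1 is at chr17:26508423-26508722 on the minus strand.
Prkar1a: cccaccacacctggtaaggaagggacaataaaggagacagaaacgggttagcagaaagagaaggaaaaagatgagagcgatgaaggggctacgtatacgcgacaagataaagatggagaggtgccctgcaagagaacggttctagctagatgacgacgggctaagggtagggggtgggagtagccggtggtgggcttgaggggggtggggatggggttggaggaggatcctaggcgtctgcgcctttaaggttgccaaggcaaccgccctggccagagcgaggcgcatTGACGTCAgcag
Ldha: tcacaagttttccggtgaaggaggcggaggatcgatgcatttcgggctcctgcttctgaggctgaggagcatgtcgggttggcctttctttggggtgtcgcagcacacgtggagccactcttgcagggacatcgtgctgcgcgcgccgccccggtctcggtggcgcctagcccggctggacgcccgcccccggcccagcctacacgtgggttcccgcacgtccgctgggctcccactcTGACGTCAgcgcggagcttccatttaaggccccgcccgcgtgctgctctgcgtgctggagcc
Dusp1: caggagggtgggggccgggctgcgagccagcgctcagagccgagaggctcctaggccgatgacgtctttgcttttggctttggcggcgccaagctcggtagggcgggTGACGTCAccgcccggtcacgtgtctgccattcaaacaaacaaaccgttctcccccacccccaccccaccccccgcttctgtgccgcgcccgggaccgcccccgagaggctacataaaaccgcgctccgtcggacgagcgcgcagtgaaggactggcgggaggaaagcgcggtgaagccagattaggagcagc
TGACGTCA, searched on both strands, was in 588 of 32851 windows (1.79%), or in at least 1 window of 549 of 27025 genes (2.03%). Of the 114 genes picked by the naming rule that had a window, 7 held it: Dusp1, Errfi1, Fscn1, H2-Aa, Ldha, Mitf and Prkar1a. The windows of Nr4a1, Nr4a2, Nr4a3 and Atf3 do not hold these letters, which says nothing of the factor.

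Most glycolysis and hypoxia genes had a more positive change in CD4 T cells than in lung. Of 24, 11 rose and 5 fell in CD4 T cells (median 0.46, and -0.01 with scaling on T cell genes), 1 rose and 23 fell in lung (median -1.92), 10 rose in CD4 T cells and fell in lung (10.9% of all genes tested did), and 6 moved together (19.0% of all). The difference was positive and called for 20, against 31.5% of all genes tested (median 2.26, 1.84 to 3.15 over the scalings). Under the melanocyte covariate in lung 20 still fell in lung, with a median of -1.22. With the close libraries summed 4 rose and 2 fell in CD4 T cells, and 19 differences were positive and called. Slc16a3, the lactate exporter MCT4, had 76.1, 83.4, 78.2 and 77.9 CPM in propranolol CD4 T cell libraries, against 7.95, 13, 12.7 and 13.1 CPM in control ones. Whole lung held 19.1, 24, 14.9, 17.2 and 17.2 CPM of it with propranolol, against 173, 269, 88, 93.1 and 105 CPM in controls. The 2 materials moved in opposite directions with no overlap, with changes of 2.74 and -2.93 and a difference of 5.67 ± 0.39 (edgeR adjusted p = 9.48e-10). Ldha, lactate dehydrogenase A, had 553, 759, 651 and 633 CPM in propranolol CD4 T cell libraries, against 390, 409, 397 and 404 CPM in control ones. Propranolol lungs had 371, 284, 222, 208 and 385 CPM of it, against 1570, 1710, 864, 1200 and 1120 CPM in control lungs. No groups overlapped, and the difference was 2.79 ± 0.27 (edgeR adjusted p = 5.97e-08), although the CD4 T cell rise of 0.70 was not called with the close libraries summed (0.67, adjusted p = 0.219) or with scaling on T cell genes (0.23, adjusted p = 0.355). Ndrg1, a hypoxia-induced gene, rose by 2.55 in CD4 T cells and fell by 1.30 in lung. Hk1, Tpi1, Pdk1, Car9 and Ankrd37 fell in both, and Pfkfb3, which makes the allosteric activator of phosphofructokinase, rose in both. Got1, aspartate aminotransferase of the malate shuttle, and Gjb2, a gap junction connexin, were among the genes with the strongest opposite changes, at 3.61 and -1.74 for Got1 and 1.85 and -2.01 for Gjb2. The lung change of Got1 was -0.23 (adjusted p = 0.340) with the melanocyte covariate, and the CD4 T cell rise of Gjb2 had adjusted p of 0.067 with the close libraries summed.

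Genes of protein folding and stress also mostly had a more positive change in CD4 T cells than in lung. For comparison, 31.5% of all genes tested rose and 32.5% fell in CD4 T cells, and 40.9% rose and 29.3% fell in lung. Of all genes 25.9% moved apart, 19.0% moved together, and 31.5% had a positive called difference. Of 25 heat shock and chaperone genes, 17 rose and 1 fell in CD4 T cells (median 0.36, and -0.10 with scaling on T cell genes), 1 rose and 20 fell in lung (median -1.0), 12 moved apart and 2 together, and the difference was positive and called for 24 (median 1.42). The median difference was 1.0 to 2.32 over the scalings. With the close libraries summed 8 rose in CD4 T cells and 22 differences were positive and called. Hspa1b, an inducible HSP70, had 37.3, 19.1, 28.2 and 26.3 CPM in propranolol CD4 T cell libraries, against 1.45, 2.34, 2.26 and 1.92 CPM in control ones. In lung it had 4.41, 5, 8.42, 10.5 and 5.28 CPM with propranolol, against 46.9, 56.6, 27.8, 23.5 and 28.5 CPM in controls. The groups did not overlap, with changes of 3.77 and -2.39 and a difference of 6.16 ± 0.44 (edgeR adjusted p = 1.69e-09). Hspa1a, its neighbour, changed by 4.37 and -1.43. The pair encode nearly the same protein, so counting may have split reads between them, and the 2 promoters, shown here for that likeness, were identical at 296 of 300 bases (98.7%). They lie on the minus strand at chr17:34959189-34959488 for Hspa1b and chr17:34972107-34972406 for Hspa1a (GRCm38.p6, RefSeq), and capitals mark a heat shock element, GAANNTTC.
Hspa1b: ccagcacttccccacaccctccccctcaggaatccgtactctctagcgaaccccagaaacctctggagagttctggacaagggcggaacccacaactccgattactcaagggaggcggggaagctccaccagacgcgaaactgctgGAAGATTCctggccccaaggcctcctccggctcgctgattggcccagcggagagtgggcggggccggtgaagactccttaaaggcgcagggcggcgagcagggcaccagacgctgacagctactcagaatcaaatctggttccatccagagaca
Hspa1a: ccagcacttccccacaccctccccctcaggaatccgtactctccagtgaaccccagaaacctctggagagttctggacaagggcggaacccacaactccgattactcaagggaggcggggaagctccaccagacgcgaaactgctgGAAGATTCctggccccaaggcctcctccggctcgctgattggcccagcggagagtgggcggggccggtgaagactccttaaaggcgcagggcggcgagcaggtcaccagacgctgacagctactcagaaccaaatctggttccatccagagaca
GAANNTTC, searched on both strands, was in 2582 of 32851 windows (7.86%), or in at least 1 window of 2442 of 27025 genes (9.04%), and of 11 of the 114 genes picked by the naming rule. Dnaja1, an HSP40 co-chaperone, holds it in the window at chr4:40722218-40722517 and not in its other windows. It rose by 0.59 in CD4 T cells and fell by 0.74 in lung. Of 22 genes of the unfolded protein and integrated stress responses, 15 rose and 3 fell in CD4 T cells, 3 rose and 14 fell in lung, 8 moved apart and 6 together, and 20 differences were positive and called (median 1.37). Given the melanocyte covariate 8 of these fell in lung. Atf4, the effector of the integrated stress response, had 661, 738, 666 and 688 CPM in propranolol CD4 T cell libraries, against 146, 150, 144 and 144 CPM in control ones. Its lung values were 178, 161, 156, 158 and 177 CPM with propranolol, against 224, 241, 201, 180 and 196 CPM in controls. The groups did not overlap, and the lung fall was small: the changes were 2.23 and -0.29, and the lung one was -0.18 (adjusted p = 0.29) with the melanocyte covariate. Chac1, an Atf4 target that degrades glutathione, and Sesn2, a stress-induced brake on mTORC1, had differences of 6.03 ± 0.28 and 3.21 ± 0.15.

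Ribosomal protein genes split by small amounts but in nearly every member. For the lists here, the shares of all genes tested were 31.5% higher and 32.5% lower in CD4 T cells, and 40.9% higher and 29.3% lower in lung. Those that moved apart were 25.9%, those that moved together 19.0%, and those with a positive called difference 31.5%. Of 32 measured, 29 rose and none fell in CD4 T cells (median 0.52, and 0.06 with 3 higher and 1 lower when scaled on T cell genes), none rose and 30 fell in lung (median -0.50), 27 moved apart, and the difference was positive and called for all 32 (median 1.0, 0.58 to 1.92 over the scalings). In lung with the melanocyte covariate 1 of the 32 fell (median -0.30), and 31 differences stayed positive and called. With the close libraries summed 6 of them rose in CD4 T cells, 8 rose there with lung scaled on resident cells, and in both cases all 32 differences were positive and called. Rpl19 had 626 to 688 CPM with propranolol and 419 to 454 CPM in controls among CD4 T cell libraries, and 79.9 to 112 CPM with propranolol and 133 to 164 CPM in controls among lungs (difference 1.22 ± 0.12, edgeR adjusted p = 1.3e-07). Ribosomal protein genes have many processed copies that could share reads. Of 24 nuclear genes of oxidative phosphorylation, 2 rose and 2 fell in CD4 T cells and 24 fell in lung, and 21 differences were positive and called (median 0.89). When the melanocyte covariate was used, 1 of these 24 fell in lung, and with the close libraries summed none was called in CD4 T cells. Of 20 genes of cholesterol synthesis, 11 rose and 5 fell in CD4 T cells (7 and 8 with scaling on T cell genes), 1 rose and 15 fell in lung, and 8 moved apart and 4 together. With the melanocyte covariate 4 of the 20 fell in lung. The share of this list that fell in CD4 T cells was below that of all genes, and the share that moved together was near that of all genes. Cyp51, lanosterol demethylase, had 169 to 182 CPM with propranolol and 32.1 to 36.6 CPM in controls among CD4 T cell libraries, and 46.1 to 82 CPM with propranolol and 115 to 199 CPM in controls among lungs (difference 3.59 ± 0.23, edgeR adjusted p = 3.89e-10). Insig1, the sterol sensor that holds back this pathway, moved the same way, at 2.34 and -0.52.

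Among the genes lower in CD4 T cells and higher in lung, the 5 that the naming rule puts first by the smaller of their 2 changes were Flt3l, Shank3, Malat1, S1pr5 and Tspan32. Flt3l encodes a cytokine for dendritic cell precursors. It had 19.9, 7.74, 13.6 and 15.2 CPM in propranolol CD4 T cell libraries, against 68.9, 71.2, 69.6 and 69.8 CPM in control ones. Whole lung held 18.5, 21.7, 31.6, 35.5 and 20.2 CPM of it with propranolol, against 2.73, 2.72, 6.04, 5.28 and 4.52 CPM in controls. The 2 materials moved in opposite directions with no overlap, at -2.30 and 2.62, and the difference was -4.92 ± 0.39 (edgeR adjusted p = 5.76e-09). Tspan32, a tetraspanin of blood cells, had 65.3, 54, 56.6 and 59.6 CPM in propranolol CD4 T cell libraries, against 214, 204, 198 and 198 CPM in control ones. Propranolol lungs had 9.84, 12.3, 11.1, 12.3 and 7.87 CPM of it, against 2.78, 3.29, 3.76, 4.12 and 3.2 CPM in control lungs. It changed by -1.79 and 1.68, with the difference of -3.47 ± 0.18 among the 4 negative ones with the smallest p at a mean of at least 5 CPM in both materials (edgeR adjusted p = 2.07e-11). Shank3, a scaffold protein best known from synapses, changed by -2.93 and 1.70 (difference -4.63 ± 0.29, edgeR adjusted p = 2.84e-10), and S1pr5, a receptor that guides natural killer cell exit, by -1.90 and 1.68, where the lung rise was 1.17 (adjusted p = 0.135) with the melanocyte covariate. Malat1, a long noncoding RNA kept in the nucleus, had 1420, 222, 822 and 845 CPM in propranolol CD4 T cell libraries, against 3510, 3300, 3040 and 3010 CPM in control ones. In lung it had 1570, 1880, 2260, 2250 and 1670 CPM with propranolol, against 424, 345, 626, 627 and 607 CPM in controls. Propranolol CD4 T cell replicate 2 was the lowest by far, yet the difference of -3.88 ± 0.47 (edgeR adjusted p = 1.16e-06) was -3.55 (edgeR adjusted p = 3.21e-08) without it. Kcnq1ot1, another nuclear noncoding RNA, changed by -2.20 and 1.40. Of 25 nuclear noncoding RNAs and splicing regulators, 10 rose and 4 fell in CD4 T cells, 20 rose and 2 fell in lung (9 rose and none fell with the melanocyte covariate), and 13 of 17 called differences were negative. Of these 25, 7 rose in both, 2 were higher in CD4 T cells and lower in lung, and 4 were lower in CD4 T cells and higher in lung. That last class held 15.0% of all genes tested, so the list was near that share. Of all genes, 31.5% rose and 32.5% fell in CD4 T cells, 40.9% rose and 29.3% fell in lung, and 11.1% rose in both. A negative called difference was found for 37.6% of all genes. The lung median of this list was 0.81, and -0.14 with lung scaled on resident cells.

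T cell genes rose in lung more than in the CD4 T cell libraries. Beside the lists of this paragraph, 31.5% of all genes tested rose and 32.5% fell in CD4 T cells, and 40.9% rose and 29.3% fell in lung. Of all genes 11.1% were higher in both and 25.9% moved apart. Of 18 T cell identity genes, 7 rose and 1 fell in CD4 T cells (median 0.32), 18 rose in lung (median 1.61), 7 rose in both, and 14 differences were negative and called (median -1.08, -1.49 to -0.18 over the scalings), against 37.6% of all genes tested. The scaling on T cell genes uses these same 18 genes. Their CD4 T cell median of -0.16 under it was therefore held near 0 by construction and is no check on this list. Under the melanocyte covariate in lung, 12 of the 18 rose in lung and 7 differences were negative and called (median -0.50). Cd3e had 291 to 400 CPM with propranolol and 257 to 279 CPM in controls among CD4 T cell libraries, and 7.27 to 14.1 CPM with propranolol and 2.27 to 5.09 CPM in controls among lungs (difference -1.41 ± 0.28, edgeR adjusted p = 2e-04; -0.65, adjusted p = 0.0622, with the melanocyte covariate in lung). Bcl11b, a T lineage transcription factor, moved apart, at -0.65 and 1.69, and was the only 1 of the 18 to do so. Tcf7, a factor of naive and memory T cells, changed by -0.72 and 0.54; with lung scaled on resident cells its lung change was -0.38 and its difference, -1.27 as reported, was -0.36 and not called (adjusted p = 0.0806). Of 18 genes of cytotoxic lymphocytes, 7 rose and 2 fell in CD4 T cells, 18 rose in lung, 7 rose in both and 2 moved apart, and 11 differences were negative and called (median -1.26). Given the melanocyte covariate 12 of these rose in lung. The shares of the T cell identity and cytotoxic lists that rose in CD4 T cells were near that of all genes. All members of both lists rose in lung, so the 7 higher in both are the 7 that rose in CD4 T cells. The cytotoxic share that moved apart was below that of all genes. Ncr1, a natural killer cell receptor, had 4.48 to 6.53 CPM with propranolol and 10.2 to 13.1 CPM in controls among CD4 T cell libraries, and 4.14 to 6.72 CPM with propranolol and 1.06 to 1.77 CPM in controls among lungs. Of 13 plasma cell genes, 3 rose and 1 fell in CD4 T cells, 11 rose and 1 fell in lung, and 10 differences were negative and called (median -2.18). Igha, the IgA heavy chain, had 3960 to 7300 CPM with propranolol and 6000 to 6310 CPM in controls among CD4 T cell libraries, which overlapped, and 260 to 412 CPM with propranolol and 42.4 to 75.4 CPM in controls among lungs. Of 9 platelet genes, 1 rose and 4 fell in CD4 T cells, 8 rose in lung, and 3 moved apart (15.0% of all genes tested were lower in CD4 T cells and higher in lung), the von Willebrand factor receptor subunits Gp1ba, Gp5 and Gp9. When the melanocyte covariate was used, 4 of the 9 platelet genes rose in lung. Gp1ba had 0.855 to 2.01 CPM with propranolol and 3.9 to 5.04 CPM in controls among CD4 T cell libraries, and 1.87 to 3.05 CPM with propranolol and 0.373 to 0.748 CPM in controls among lungs.

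**Figure D4:**
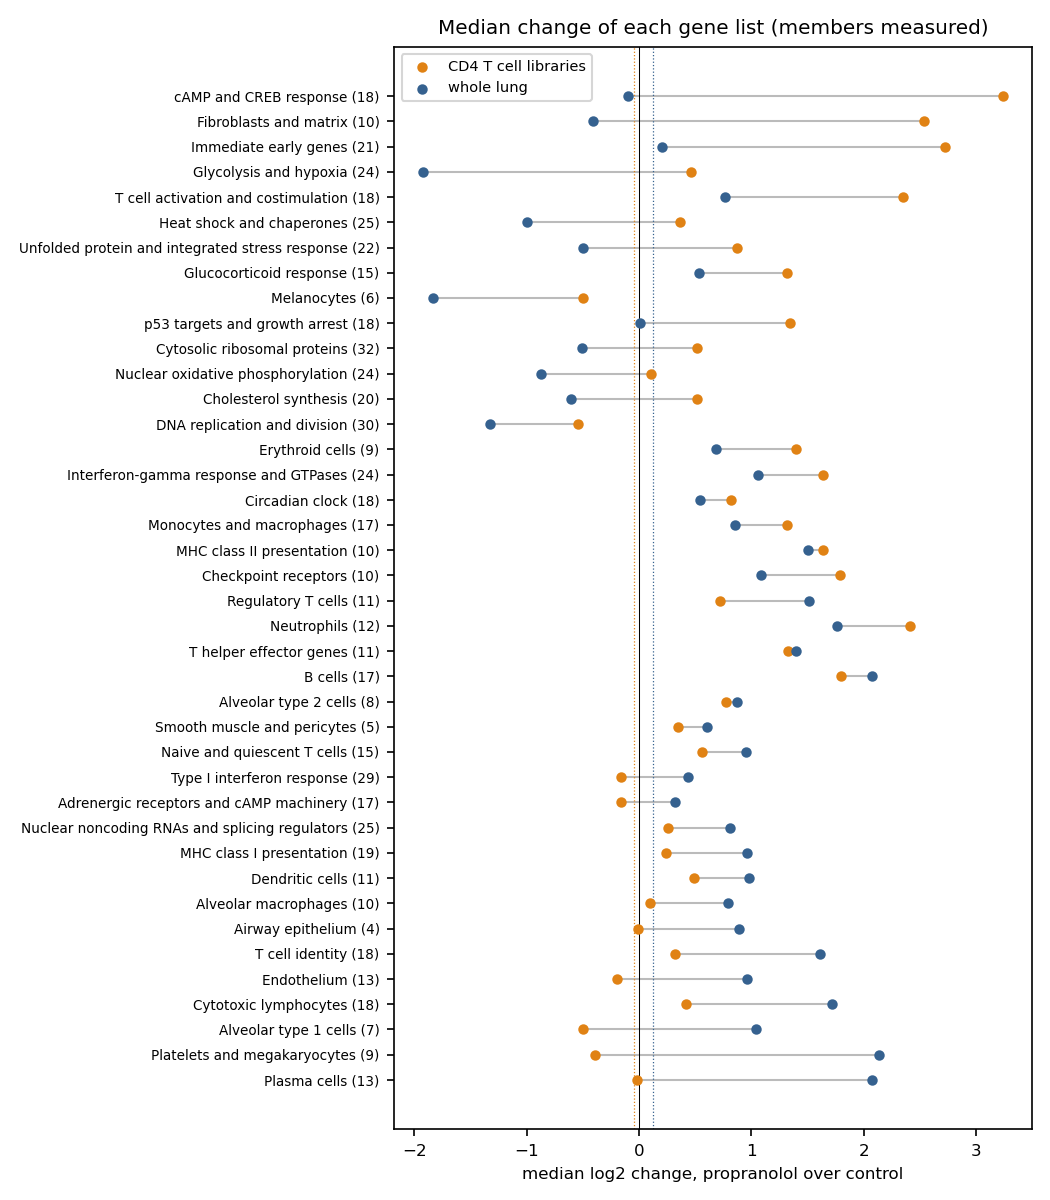
Median log2 change (propranolol over control) of the measured members of each gene list, in CD4 T cell libraries (orange) and in whole lung (blue), ordered by their difference; the number of measured members is in brackets and dotted lines mark the medians of all tested genes, -0.04 and 0.13. The cAMP and CREB list stands at 3.24 in CD4 T cells and -0.10 in lung, DNA replication and division at -0.54 and -1.33, and B cells stand at 1.80 and 2.07.

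Adrb1, the main receptor of heart muscle, was near the detection limit in CD4 T cells, at 0.68 to 1.23 CPM with propranolol and 0.359 to 1.07 CPM in controls, and rose by 1.34 in lung. Of 21 genes of the receptors and cAMP machinery 17 were measured in both materials: 6 rose and 7 fell in CD4 T cells, 11 rose and 3 fell in lung, 4 moved together and 7 apart. Over all genes tested 31.5% rose and 32.5% fell in CD4 T cells, 40.9% rose and 29.3% fell in lung, 19.0% moved together and 25.9% apart, and the CD4 T cell counts of the list were near these shares. With the melanocyte covariate none of the 17 rose and 2 fell in lung. Adcy6, an adenylyl cyclase, had 25.2, 22.5, 25.8 and 25 CPM in propranolol CD4 T cell libraries, against 113, 103, 105 and 106 CPM in control ones. Whole lung held 80.2, 87.4, 98.2, 110 and 90.4 CPM of it with propranolol, against 73.6, 79, 83.3, 79.3 and 75.6 CPM in controls, an overlap of the groups. The difference was -2.42 ± 0.12 (edgeR adjusted p = 9.07e-12), and the lung change of 0.30 was -0.65 with lung scaled on resident cells and -0.02 (adjusted p = 0.883) with the melanocyte covariate. Adcy7, the cyclase of blood cells, and Adcy9 changed the same way, at -1.49 and 0.54 and at -1.06 and 0.69. Prkar1a, the regulatory subunit that holds protein kinase A inactive and whose promoter is shown above, had 977, 1140, 1060 and 1040 CPM in propranolol CD4 T cell libraries, against 371, 367, 381 and 374 CPM in control ones. Propranolol lungs had 440, 410, 417, 398 and 450 CPM of it, against 630, 618, 539, 564 and 557 CPM in control lungs. No groups overlapped, and the difference was 1.91 ± 0.09 (edgeR adjusted p = 6.4e-12). Gnas, the stimulatory G protein, moved apart likewise, at 0.97 and -0.34, and Grk2 and Arrb2, which switch receptors off, changed by -0.36 and 0.46 and by -0.95 and 0.85. Among the same 4 negative differences were also Rgs14, a regulator of G protein signalling (-2.84 ± 0.14), and Arhgap9, a GTPase-activating protein of blood cells (-2.07 ± 0.10), whose lung change of 0.23 was -0.70 with lung scaled on resident cells and was not called with TMM computed within each material (0.10, adjusted p = 0.221).

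Of 29 type I interferon response genes, 6 rose and 9 fell in CD4 T cells (median -0.16), 17 rose and 4 fell in lung (median 0.43, and -0.48 with lung scaled on resident cells), 3 moved together and 7 apart. The shares that fell in CD4 T cells and that moved apart were near those of all genes, 32.5% and 25.9%. Under the melanocyte covariate none rose and 4 fell in lung. Isg15, a ubiquitin-like modifier, had 52.5, 69.3, 61.3 and 58.8 CPM in propranolol CD4 T cell libraries, against 15.2, 16.3, 14.3 and 16.5 CPM in control ones. In lung it had 16.1, 16.5, 22.2, 16.9 and 10.9 CPM with propranolol, against 15, 14.7, 20.3, 24 and 18.7 CPM in controls. The CD4 T cell groups did not overlap and the lung groups did, and the difference was 2.08 ± 0.24 (edgeR adjusted p = 7.42e-07). Ifit2, an RNA-binding interferon effector, fell in CD4 T cells by 1.53, and its lung change of 0.06 was not called. The promoter of Isg15 (chr4:156200769-156201068, minus strand, GRCm38.p6, RefSeq) is shown because it holds 3 overlapping matches to the interferon motif GAAANNGAA, marked in capitals.
Isg15: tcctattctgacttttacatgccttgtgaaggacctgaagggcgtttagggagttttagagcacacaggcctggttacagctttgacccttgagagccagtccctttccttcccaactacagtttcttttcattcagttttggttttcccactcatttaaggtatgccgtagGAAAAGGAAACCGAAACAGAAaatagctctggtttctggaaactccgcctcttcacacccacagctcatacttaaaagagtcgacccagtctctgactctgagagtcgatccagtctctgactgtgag
GAAANNGAA, searched on both strands, was in 2812 of 32851 windows (8.56%), or in at least 1 window of 2638 of 27025 genes (9.76%), and of 18 of the 114 genes picked by the naming rule, among them Cxcl10, Irgm1, Rsad2, B2m and Cd274. Beside the next 2 lists, 31.5% of all genes tested rose in CD4 T cells, 40.9% in lung and 11.1% in both. Of 24 interferon-gamma response genes, 15 rose and 1 fell in CD4 T cells (median 1.64), 22 rose in lung (median 1.06), and 13 rose in both. Given the melanocyte covariate 6 of these rose in lung. Cxcl10, a chemokine for activated T cells, had 215 to 234 CPM with propranolol and 3.6 to 4.65 CPM in controls among CD4 T cell libraries, and 6.23 to 14.4 CPM with propranolol and 9.43 to 17.1 CPM in controls among lungs, where the groups overlapped (difference 6.18 ± 0.28, edgeR adjusted p = 4.86e-12). Of 19 MHC class I presentation genes, 8 rose and 2 fell in CD4 T cells and 19 rose in lung, with 8 higher in both. When the melanocyte covariate was used, 7 of these rose in lung. B2m, the invariant chain of class I, rose by 1.34 in CD4 T cells and 0.33 in lung, and the lung change was -0.61 with lung scaled on resident cells. Tap2, a peptide transporter subunit, changed by -0.63 and 0.99.

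**Figure D5:**
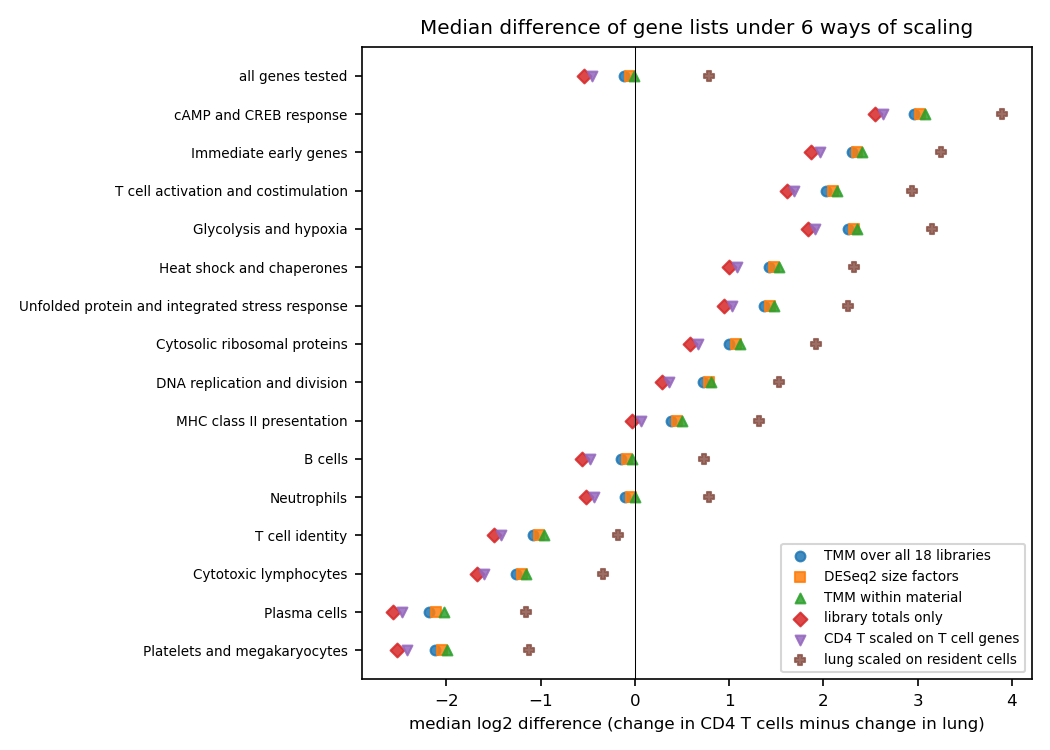
Median log2 difference (change in CD4 T cells minus change in lung) of 15 gene lists and of all tested genes under 6 ways of scaling the libraries. The cAMP and CREB list lies between 2.55 and 3.89 and the T cell identity list between -1.49 and -0.18, while B cells and neutrophils lie on both sides of 0.

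Of 18 circadian genes, 10 rose and 4 fell in CD4 T cells, 10 rose and 4 fell in lung, 5 moved together and 7 apart. Over all genes tested 31.5% rose and 32.5% fell in CD4 T cells, 40.9% rose and 29.3% fell in lung, 19.0% moved together and 25.9% apart. Bhlhe40, a repressor that activated T cells also use, rose by 3.68 in CD4 T cells and fell by 0.81 in lung, and Nfil3 did so by 3.65 and 1.21. Dbp, a clock output factor, moved the other way, with 2.65 to 4.08 CPM with propranolol and 9.67 to 10.9 CPM in controls among CD4 T cell libraries, and 80.9 to 111 CPM with propranolol and 36.9 to 56.1 CPM in controls among lungs. Of 15 glucocorticoid response genes, 9 rose and 3 fell in CD4 T cells and 10 rose and 5 fell in lung, and 11 moved together and 1 apart. Of 18 p53 target and growth arrest genes, 11 rose and 3 fell in CD4 T cells and 8 rose and 6 fell in lung, and 8 moved together and 3 apart. With the melanocyte covariate 3 circadian and 2 growth arrest genes rose in lung and no glucocorticoid gene did. Cdkn1a, an inhibitor of cyclin-dependent kinases, had 125 to 143 CPM with propranolol and 2.8 to 3.38 CPM in controls among CD4 T cell libraries, and 50.7 to 95.1 CPM with propranolol and 80.9 to 130 CPM in controls among lungs, an overlap (difference 5.95 ± 0.26, edgeR adjusted p = 2.71e-12; the lung change of -0.45 was 0.19 and not called with the melanocyte covariate). Some lists of resident lung cells cannot be read in CD4 T cell libraries: Col6a2, a collagen gene, was at 0 CPM in all 4 control libraries and at 0.453 to 1.35 CPM with propranolol, so its fitted difference is no measure of a change. Cd14, a monocyte receptor, had 72.8 to 88.7 CPM with propranolol and 0.566 to 1.77 CPM in controls among CD4 T cell libraries, and 20 to 28.4 CPM with propranolol and 15.5 to 32.8 CPM in controls among lungs, which overlapped.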

How the data were processed

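Polyadenylated RNA of 26 libraries was sequenced, of which 18 were used here and the 8 monocyte libraries were not. The deposited values are raw counts per gene in Ensembl identifiers. Per the submitters' processing notes, STAR 2.7.9, featureCounts and Subread 2.0.3 were used with the genome build GRCm39. No source used here states a strand setting for the counting, and without one overlapping and antisense genes share reads. The 55416 genes of the tables were joined by identifier, and 52083 (94%) had a symbol.

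Counts were analysed in R 4.3.3 with edgeR 4.0.16 as 4 groups. Genes were kept where filterByExpr (minimum count 10) passed within each material, and TMM factors were computed over all 18 libraries, so normalization assumes that most genes did not differ across materials and treatments. The glmQLFit and glmQLFTest functions tested the propranolol change in CD4 T cells, the change in lung and their difference, with a Benjamini-Hochberg threshold of 0.05. A gene moved together when both changes were called with the same sign, and apart when both were called with opposite signs and the difference was called. Alternatives were other scalings, DESeq2 1.42.0, voom in limma 3.58.1, other filters, a replicate block, a melanocyte covariate, summed close libraries and leaving out each library. The fitting steps were run on simulated data with changes planted in a small part of the genes. Such data cannot test the scaling where most genes change, as they did here.

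The members and the 40 gene lists were chosen with earlier results of these data known. Named genes were the first 5 per class by the smaller of their 2 absolute log2 changes and the 4 per direction with the smallest p of the difference, both among genes with a symbol and a mean of at least 5 CPM in both materials and without predicted loci and antigen receptor segments, and, with no such minimum, up to 3 per list with the smallest p, the adrenergic receptors and defining markers. Not all genes that the rule names are reported here. List members outside this rule were named after their values were seen. Promoter windows came from RefSeq on GRCm38.p6 and were matched by symbol. The labels do not say whether replicate numbers pair libraries. Correlations of same-numbered deviations were -0.0344 to 0.0338 in CD4 T cells and -0.0777 to 0.542 in lung. Lung replicates 1 and 3 had 0.47 and 0.542, so these values do not settle pairing in lung.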

Additional observations from a re-analysis of the deposited data

Results flagged for a closer look

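The difference between CD4 T cells and lung was itself tested, and edgeR called it as more positive in CD4 T cells for 4700 genes and as more negative for 5617. Among the genes with the largest opposite changes it was 8.92 for Nr4a3, 6.16 for Hspa1b, 5.67 for Slc16a3, 5.34 for Got1 and 3.86 for Gjb2, on the log2 scale. In the other direction it was -4.92 for Flt3l, -4.63 for Shank3, -3.88 for Malat1, -3.58 for S1pr5 and -3.47 for Tspan32. The genes with the smallest p had differences of 6.87 for Crem, 5.90 for Nr4a1, 3.53 for Ifrd1 and 3.33 for Tob2, and of -2.84 for Rgs14, -2.42 for Adcy6 and -2.07 for Arhgap9. Slfn4 rose in both materials and had a difference of 0.86.

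In 3 of 112 gene and group pairs 1 library stood apart from the others of its group by Dixon's criterion, where chance gives about 1 in 20. Fcer2a had 7.43 CPM in control CD4 T cell replicate 1, against 3.98 to 4.54 CPM in the other controls. Slc16a3 had 7.95 CPM in the same library, against 12.7 to 13.1 CPM in the other controls. Nr4a1 had 4230 CPM in propranolol CD4 T cell replicate 1, against 3400 to 3490 CPM in the other propranolol libraries.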

How the results depend on the processing

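With the melanocyte level as a covariate with its own slope in each material, 4797 genes were called for the difference, 5189 in CD4 T cells and 1779 in lung, with 303 moving together and 338 apart. With it in lung alone, 1592 were called in lung, 430 moved together and 720 apart. In lung the melanocyte level did not overlap between groups, and in CD4 T cell libraries it lay near its floor, at 0.977 to 1.08 with propranolol and 1.13 to 1.16 in controls. With the close CD4 T cell libraries summed, 6001 genes were called in CD4 T cells, 1646 moved together and 2347 apart; this fit has 1 control CD4 T cell unit, assumed to vary like the other groups. Leaving out 1 library at a time gave 10013 to 10593 genes for the difference, 9067 to 9727 in CD4 T cells, 9761 to 11006 in lung, 2612 to 3085 together and 3599 to 4194 apart. With the replicate number as a block the counts were 10312, 9590, 10255, 2874 and 3820, and no call of the 138 named genes changed. The difference changed sign with lung scaled on resident cells for S100a8 (0.77), Bank1 (0.80) and Cd8a (0.73), with the covariate in both materials for Dnph1 (-2.99), and with it in lung alone for Sdsl (-1.54) and Dnph1 (-1.74); the cause was not tested. The share of positive calls of the difference was 45.6% as reported, 77.9% with lung scaled on resident cells, 29% with CD4 T cell libraries scaled on T cell genes and 26.1% by library totals. No value of the difference could be had from fits of each material alone, and a minimum mean of 5 CPM left 106 named genes. Genes near 1 CPM in CD4 T cells, such as Adrb1 and Col6a2, are limited by depth.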
